A study of Rattus norvegicus with 20 samples.

Results

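The enzymes and regulators that build cholesterol and fatty acids were followed as 44 named rat genes, 21 of a sterol arm and 23 of a fatty acid arm. They were taken from a table of 30560 genes by gene symbol. The table held 42 of them, 20 in the sterol arm and 22 in the fatty acid arm. The expression of Fdps and Mlxipl, the remaining 2, was not analysed here. Poly-A RNA was measured in left ventricle and kidney cortex taken from each of 10 male rats described as hypertensive, with 1 library per organ and animal. All 10 rats carried the genotype label WT, received a telemetry device at 8 weeks of age and ate 4% NaCl for 3 weeks. Rats RB035 to RB039 received Maresin 1 (MaR1), a lipid mediator derived from docosahexaenoic acid, through a subcutaneous osmotic minipump set to at most 1.3 µg/kg/day, and rats RB030 to RB034 received vehicle. The 4 groups, MaR1 kidney, vehicle kidney, MaR1 heart and vehicle heart, therefore hold 5 animals each. The labels name no strain and hold no rats on low salt and no normotensive rats, so hypertension and salt are shared by every library.

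Cholesterol is assembled from acetyl-CoA through mevalonate and squalene, and its enzymes are driven together by the transcription factor SREBP2. Long-chain fatty acids are built from citrate-derived acetyl-CoA by acetyl-CoA carboxylase and fatty acid synthase, under SREBP1c, and are then elongated, desaturated and coupled to coenzyme A. In most tissues the whole de novo route is low beside that of liver and fat, while desaturases and elongases also remodel dietary fatty acids into the polyunsaturated chains from which mediators such as MaR1 are made.

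Between 19383232 and 30342034 fragments per library were assigned to genes. Values are FPKM, fragments per kilobase of gene divided by a library size that the authors scaled, so levels of different genes are compared per length. A gene of 1 kb at 1 FPKM had 19.7 to 34.9 fragments. Markers matched the organ labels: 9 proximal tubule genes summed to 3253 to 5554 FPKM in kidneys and 1.60 to 17.6 FPKM in hearts, and 6 ventricular muscle genes to 0.654 to 1.502 FPKM in kidneys and 10668 to 18636 FPKM in hearts. Some libraries stood apart within their organ. Kidney RB039 (MaR1) held 553 FPKM of 9 white fat cell markers against 14.9 to 74.3 FPKM in the other 9 kidneys, and 5 hearts (RB035 and RB038 with MaR1, RB031, RB033 and RB034 with vehicle) held the atrial light chain Myl7 at 151 to 784 FPKM against 0.163 to 1.65 FPKM in the other 5. In tissue pieces such as these, fewer cells of a type and less RNA per cell cannot be told apart.

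The sterol arm was expressed throughout in the kidney, and most of its enzymes were lower in the heart. Of its 20 genes, 14 were called higher and 2 lower in kidney than in heart among MaR1 rats, and 13 higher and 4 lower among vehicle rats (limma on log2(FPKM + 0.5), Benjamini-Hochberg adjusted p under 0.05 over 12984 genes). The same test called 40.4% of all genes higher and 38.1% lower in kidney among MaR1 rats, and 40.9% higher and 37.8% lower among vehicle rats. The median log2 difference, kidney over heart, was 1.09 for the sterol arm in MaR1 rats and 0.90 in vehicle rats, against 0.02 and 0.03 over all genes tested. Among genes with a mean of at least 5 FPKM the sterol median was 0.36 in MaR1 rats and 0.27 in vehicle rats. Calls in both treatments went to 13 higher genes and to 2 lower ones, Mvk and Pmvk. Where all libraries were rescaled to the same FPKM sum, the median of all genes moved to 0.59 in MaR1 rats and 0.62 in vehicle rats. The split of calls then moved to 8070 higher and 2625 lower genes in MaR1 rats and 8212 and 2570 in vehicle rats, against 5249 and 4944 and against 5306 and 4905 without it, so organ differences below about that size depend on the scale.

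By step, the first part of the pathway held genes that were higher and genes that were lower in kidney. Hmgcs1, which makes HMG-CoA for the mevalonate pathway, had 7.39 to 15.3 FPKM in MaR1 kidneys and 7.10 to 7.61 FPKM in MaR1 hearts, a log2 difference of 0.34 ± 0.13 (SE, adjusted p = 0.0264), and 0.05 ± 0.13 in vehicle rats. Kidney RB039 had the 15.3 FPKM, and the other 4 MaR1 kidneys reached 9.88 FPKM. Mvk and Pmvk phosphorylate mevalonate in consecutive steps, and both were lower in kidney. Mvk had 4.79 to 6.08 FPKM in the 10 kidneys and 6.92 to 10.005 FPKM in the 10 hearts, with log2 differences of -0.63 in MaR1 rats and -0.47 in vehicle rats. The vehicle value became 0.13 after rescaling to the same sum, and the MaR1 value ran from -0.71 to -0.05 over 18 alternative fits. Pmvk had 5.58 to 8.38 FPKM in kidneys and 14.1 to 18.4 FPKM in hearts, with log2 differences of -1.20 ± 0.09 in MaR1 rats and -1.31 ± 0.09 in vehicle rats (adjusted p = 2.82e-10 and 7.07e-11), and no kidney reached the lowest heart. Idi1, the isopentenyl diphosphate isomerase 1 step later than Mvd, ran the other way, with 4.97 to 9.70 FPKM in kidneys and 1.33 to 2.63 FPKM in hearts.

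Most enzymes from squalene onward were higher in kidney. Sqle, the squalene epoxidase that is a rate-limiting step, had 5.05 to 7.89 FPKM in kidneys and 1.59 to 2.91 FPKM in hearts, and Lss, which closes the sterol rings, had 4.19 to 6.36 and 1.37 to 1.96 FPKM. Cyp51, the lanosterol demethylase that follows, did not share this: it had 8.59 to 12.5 FPKM in kidneys and 10.1 to 13.5 FPKM in hearts. Its log2 difference was -0.07 in MaR1 rats and -0.23 in vehicle rats, and the vehicle value became 0.39 after rescaling to the same sum. Tm7sf2, a sterol C14 reductase, had 6.46 to 13.7 FPKM in kidneys and 0.574 to 1.35 FPKM in hearts, the largest difference of the arm at 3.16 ± 0.20 in MaR1 rats and 2.78 ± 0.20 in vehicle rats. The last steps also differed, with Dhcr7, the 7-dehydrocholesterol reductase, at 9.05 to 18.7 FPKM in kidneys and 0.814 to 2.12 FPKM in hearts. Sc5d, the lathosterol desaturase, was the most abundant gene of the arm in kidneys at 26.4 to 40.3 FPKM, and had 5.62 to 8.73 FPKM in hearts. Hsd17b7, a ketosteroid reductase of C4 demethylation, was the least abundant in both organs, at 1.13 to 2.56 FPKM in kidneys and 0.344 to 0.799 FPKM in hearts.

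The other steps were higher in kidney, with Fdft1 not called. Acat2, the cytosolic thiolase at the entry of the pathway, had 4.09 to 6.90 FPKM in kidneys and 0.568 to 1.43 FPKM in hearts, and Mvd, the mevalonate diphosphate decarboxylase, 3.31 to 4.35 and 2.19 to 3.23 FPKM. Fdft1, the squalene synthase, had 7.22 to 9.83 FPKM in kidneys and 4.25 to 8.90 FPKM in hearts. Msmo1 and Nsdhl, which remove the C4 methyl groups, had 16.9 to 22.2 and 6.40 to 8.54 FPKM in kidneys, and 6.43 to 9.16 and 2.74 to 3.95 FPKM in hearts. Ebp, the sterol isomerase, had 16.7 to 22.7 FPKM in kidneys and 4.15 to 5.59 FPKM in hearts.

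The arm also holds its regulators and a sterol carrier. Insig1, the sterol-regulated anchor that holds SREBPs in the endoplasmic reticulum, had 12.8 to 33.2 FPKM in kidneys and 20.3 to 30.4 FPKM in hearts, where it was the most abundant gene of the arm. Its log2 difference was -0.25 in MaR1 rats and -0.42 in vehicle rats, and 0.22 in vehicle rats after rescaling to the same sum. Srebf2, which encodes SREBP2, had 9.23 to 12.3 FPKM in kidneys and 7.39 to 10.7 FPKM in hearts. Stard4, a cytosolic sterol carrier, had 4.64 to 7.78 FPKM in kidneys and 5.64 to 8.02 FPKM in hearts, and was not called in either treatment.

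**Figure D1:**
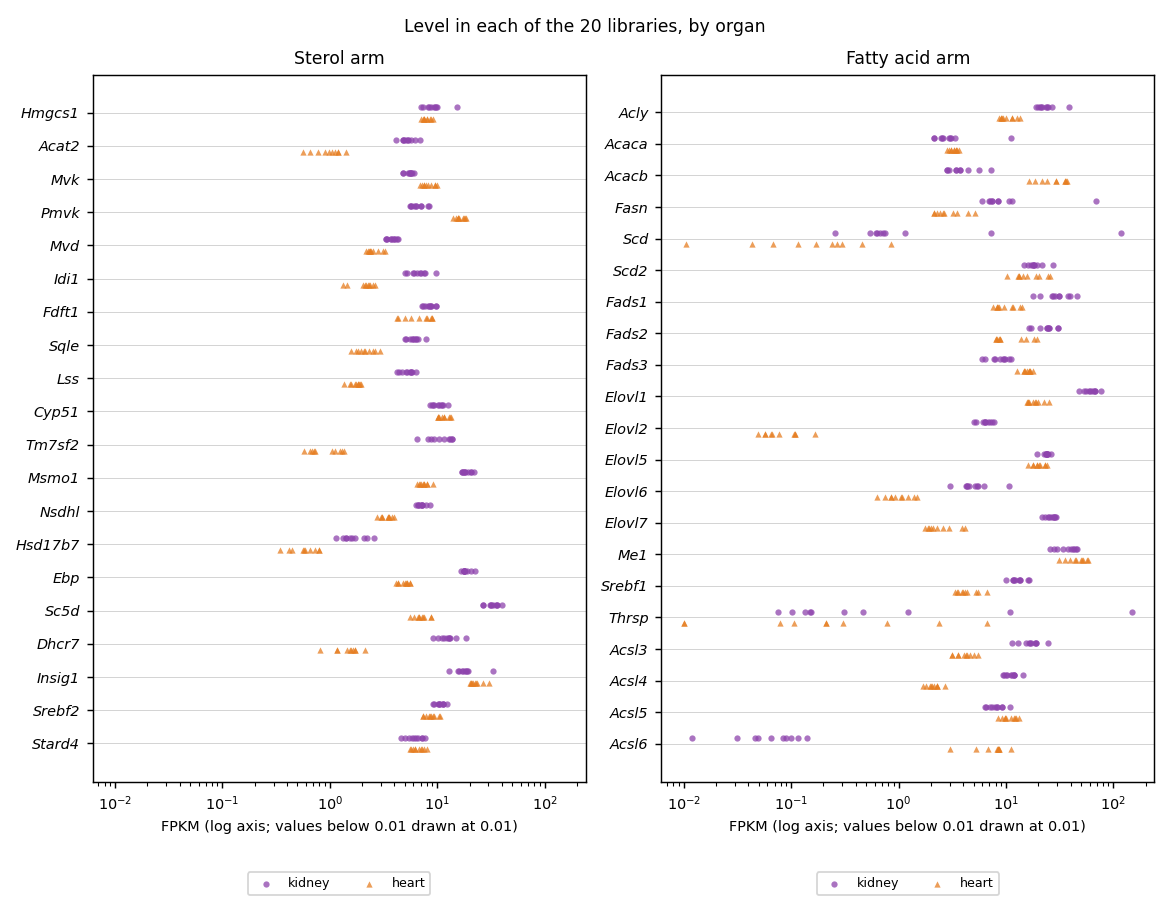
FPKM (log axis) of the members in the 10 kidneys (circles) and 10 hearts (triangles), 1 point per library, with the sterol arm on the left and the fatty acid arm on the right. Most genes sit to the right in kidneys, while Mvk, Pmvk, Acacb, Fads3 and Acsl6 sit to the right in hearts. Scd and Thrsp each have kidney points far from the others.

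The proximal promoters of a few members are shown because sterol genes are known to be driven by SREBP together with the CCAAT-binding factor NF-Y. The RefSeq windows (GRCr8, 250 bases before to 50 after each gene's start) matched 17 sterol arm and 20 fatty acid arm genes, Fdps and Mlxipl among them. The pentamer CCAAT, read on either strand, occurred in 14 of the 17 and in 11 of the 20, against 39.6% of all 27456 genes with such windows. The palindrome CACGTG occurred in 2 and 2 genes (7.08% of all genes), and the sterol element form TCACNCCAC in 0 and 0 (1.25%); none of the motifs contains another. The lines below give 140 bases, from 160 to 21 bases before the start, 5′ to 3′ on the gene's strand, with CCAAT or its complement ATTGG in capitals. They cover 4 sterol genes, Acacb, and the stearoyl-CoA desaturase pair, of which Scd2 holds the pentamer and Scd does not in this stretch.
Hmgcs1 (chr2:53382144-53382283, plus strand): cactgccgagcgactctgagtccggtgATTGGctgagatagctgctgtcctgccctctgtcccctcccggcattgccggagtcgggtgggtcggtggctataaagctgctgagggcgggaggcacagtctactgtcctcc
Mvk (chr12:47819524-47819663, minus strand): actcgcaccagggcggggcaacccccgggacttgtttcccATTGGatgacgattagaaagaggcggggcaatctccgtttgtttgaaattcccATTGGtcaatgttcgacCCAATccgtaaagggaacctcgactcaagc
Idi1 (chr17:66547545-66547684, minus strand): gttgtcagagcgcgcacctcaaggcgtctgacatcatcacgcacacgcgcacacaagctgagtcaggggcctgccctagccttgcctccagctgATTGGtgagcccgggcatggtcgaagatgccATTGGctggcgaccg
Lss (chr20:12118251-12118390, minus strand): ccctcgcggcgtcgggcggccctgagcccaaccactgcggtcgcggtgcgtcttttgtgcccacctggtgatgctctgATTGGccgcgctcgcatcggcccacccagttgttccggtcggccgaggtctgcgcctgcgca
Acacb (chr12:48138235-48138374, minus strand): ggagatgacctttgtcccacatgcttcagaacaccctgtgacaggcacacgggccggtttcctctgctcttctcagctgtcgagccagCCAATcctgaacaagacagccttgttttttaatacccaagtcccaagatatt
Scd2 (chr1:253118217-253118356, plus strand): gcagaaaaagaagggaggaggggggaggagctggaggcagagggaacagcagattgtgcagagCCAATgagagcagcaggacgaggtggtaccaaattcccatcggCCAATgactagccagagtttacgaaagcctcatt
Scd (chr1:253231752-253231891, minus strand): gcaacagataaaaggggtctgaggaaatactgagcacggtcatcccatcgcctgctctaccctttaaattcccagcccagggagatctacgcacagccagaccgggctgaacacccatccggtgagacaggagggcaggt
Mvk has 3 matches in the stretch, Idi1 and Scd2 have 2, and Hmgcs1, Lss and Acacb have 1. A match is only a run of letters, and no binding was measured.

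In several families of the fatty acid arm, the members' shares of the family's summed FPKM differed between the organs. Of 21 genes tested, 12 were called higher and 4 lower in kidney among MaR1 rats, and 12 higher and 5 lower among vehicle rats, beside the background shares given above. The median log2 difference was 1.39 in MaR1 rats, or 0.82 without rat RB039, and 1.11 in vehicle rats. In both treatments 11 genes were called higher and Acacb, Fads3, Acsl5 and Acsl6 lower. Scd was called higher in MaR1 rats only, and Elovl5 higher and Me1 lower in vehicle rats only.

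The acetyl-CoA carboxylases were one such family. Acaca makes the malonyl-CoA that is used for synthesis, and Acacb, at the mitochondrial surface, makes malonyl-CoA that restrains fatty acid oxidation. Acaca had 2.15 to 11.1 FPKM in kidneys, where all but RB039 stayed at or under 3.35 FPKM, and 2.83 to 3.62 FPKM in hearts. Acacb had 2.83 to 7.19 FPKM in kidneys and 16.5 to 36.9 FPKM in hearts, with log2 differences of -2.39 ± 0.22 in MaR1 rats and -2.96 ± 0.22 in vehicle rats (adjusted p = 5.11e-09 and 1.82e-10). Acacb therefore made up 33.7 to 77.0% of the summed FPKM of the pair in kidneys and 84.3 to 92.1% in hearts. In the coordinates of the deposited file Acacb (chr12:42366548-42457655) lies within a span of 316 kb with Mvk (chr12:42141384-42158882).

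Acyl-CoA synthetases, which activate fatty acids, were another. Acsl6 had 0.0119 to 0.142 FPKM in kidneys and 2.99 to 11.2 FPKM in hearts, the strongest heart excess of all members, with log2 differences of -3.75 ± 0.22 in MaR1 rats and -3.81 ± 0.22 in vehicle rats. Acsl3 had 11.4 to 24.8 FPKM in kidneys and 3.15 to 5.54 FPKM in hearts, and Acsl4, which prefers arachidonic acid, had 9.43 to 14.3 and 1.67 to 2.69 FPKM. Acsl5 was closer, at 6.41 to 11.0 FPKM in kidneys and 8.52 to 13.2 FPKM in hearts. Its log2 differences of -0.33 in MaR1 rats and -0.47 in vehicle rats became 0.26 and 0.15 after rescaling to the same sum.

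Of the elongases, Elovl2, which extends long polyunsaturated chains, had 5.01 to 7.73 FPKM in kidneys and 0.0494 to 0.167 FPKM in hearts. Its log2 difference was 3.48 ± 0.10 in MaR1 rats and 3.64 ± 0.10 in vehicle rats (adjusted p = 5.37e-17 and 2.4e-17), the largest kidney excess of all members. Elovl7 had 21.4 to 29.5 FPKM in kidneys and 1.75 to 4.14 FPKM in hearts. Elovl1, which makes very long saturated chains, was the most abundant gene of the arm in kidneys at 48.4 to 76.4 FPKM, with 15.6 to 25.1 FPKM in hearts. Elovl5, which extends polyunsaturated chains one step before Elovl2, was nearly level, at 19.6 to 26.0 FPKM in kidneys and 16.1 to 24.1 FPKM in hearts. Elovl6, the elongase of palmitate, had 3.02 to 10.7 and 0.626 to 1.48 FPKM. Elovl3 was listed at 0 in all 20 libraries, where 3 fragments would have been 0.0459 to 0.0813 FPKM.

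The desaturases lie in clusters on chromosome 1, with Fads1, Fads2 and Fads3 within 157 kb (chr1:206685894-206842734 in the file's coordinates) and Scd and Scd2 within 113 kb. Fads1 and Fads2, the delta-5 and delta-6 desaturases of polyunsaturated fatty acids, had 17.8 to 45.7 and 16.2 to 30.3 FPKM in kidneys, and 7.50 to 14.1 and 8.00 to 19.4 FPKM in hearts. Fads3, a desaturase of sphingoid bases, ran the other way at 5.94 to 11.0 FPKM in kidneys and 12.6 to 17.8 FPKM in hearts. Over 18 alternative fits its log2 difference ran from -1.09 to -0.39 in MaR1 rats. In vehicle rats it ran from -0.77 to -0.06, with limma adjusted p up to 0.675. The interval that the file gives for Fads3 lies inside that of Fth1, a ferritin gene at a mean of 2030 FPKM in kidneys and 1987 FPKM in hearts, and Fads2 shares 16642 bases with it on the opposite strand, so the division of reads at this locus is uncertain. Scd2 was the more abundant stearoyl-CoA desaturase in every library but kidney RB039, at 14.6 to 27.6 FPKM in kidneys and 10.1 to 25.5 FPKM in hearts. Scd made up 0.919 to 86.9% of the summed FPKM of the pair in kidneys, with a median of 3.67%, and 0.103 to 3.96% in hearts.

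Of the remaining genes, Acly, the citrate lyase that supplies acetyl-CoA, had 18.9 to 38.7 FPKM in kidneys and 8.55 to 13.5 FPKM in hearts. Acly shares 15279 bases with Eif1 on the opposite strand, so the division of reads is uncertain here too. Eif1 had a mean of 101 FPKM in kidneys and 177 FPKM in hearts. Fasn, the fatty acid synthase, had 6.02 to 69.4 FPKM in kidneys, where all but RB039 stayed at or under 11.4 FPKM, and 2.15 to 5.16 FPKM in hearts. Me1, the cytosolic malic enzyme that supplies NADPH, had 25.7 to 45.9 FPKM in kidneys and 31.1 to 58.2 FPKM in hearts, where it was the most abundant gene of the arm. Its log2 difference was -0.17 in MaR1 rats and -0.46 in vehicle rats, where rescaling to the same sum gave 0.18. Srebf1, which encodes SREBP1, had 10.1 to 16.5 FPKM in kidneys and 3.37 to 6.60 FPKM in hearts, so that Srebf1 was 49.4 to 59.4% of the summed FPKM of the SREBP genes in kidneys and 27.8 to 38.96% in hearts.

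No member was called for MaR1 against vehicle in either organ. In the kidney 40 members were tested and 0 passed an adjusted p of 0.05, as did 0% of all 12446 genes tested. An unadjusted p under 0.05 was reached by 4 of the 40, against 6.75% of all genes, and 0 of the 40 had groups that did not overlap, against 1.23%. The sterol arm had 14 genes higher and 6 lower with MaR1 and a median log2 fold change of 0.04 (-0.0186 without rat RB039), and the fatty acid arm 10 and 10 with a median of 0.05 (-0.0755 without RB039), against 6227 higher, 6219 lower and a median of 0.000217 over all genes. In the heart 36 members were tested, 0 were called (0% of 12237 genes), 1 reached an unadjusted p under 0.05 (4.6% of all genes), and 1 had groups that did not overlap (0.842%). There the sterol arm had 5 genes higher and 12 lower with a median of -0.02, and the fatty acid arm 7 and 12 with a median of -0.04, against 6637 higher, 5600 lower and a median of 0.01 over all genes. Acsl6 in the kidney, Acat2, Tm7sf2, Hsd17b7, Scd and Elovl2 in the heart, and Elovl3 in both were below the filter of a mean of 1 FPKM.

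In the kidney, Acacb had the smallest unadjusted p of the members. It had 3.72, 3.40, 7.19, 4.48 and 5.62 FPKM in the MaR1 kidneys RB035 to RB039, against 2.84, 2.97, 3.71, 2.83 and 3.44 FPKM in the vehicle kidneys RB030 to RB034. The means were 4.88 ± 1.55 and 3.16 ± 0.396 FPKM (SD, n = 5 each), and the log2 fold change was 0.52 ± 0.17 (SE; limma adjusted p = 0.661). RB037 and RB039 were highest, and RB036 lay within the vehicle range. Acsl5 had 8.18, 7.97, 11.0, 9.20 and 8.17 FPKM in MaR1 kidneys, against 9.18, 6.41, 6.53, 7.47 and 7.08 FPKM in vehicle kidneys, a log2 fold change of 0.26 ± 0.11 (limma adjusted p = 0.721). The vehicle kidney RB030 lay inside the MaR1 range.

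Pmvk was the only sterol enzyme of the kidney with an unadjusted p under 0.05 (limma adjusted p = 0.734). It had 6.02, 7.07, 8.22, 8.38 and 6.31 FPKM in MaR1 kidneys, against 5.65, 5.58, 6.30, 5.66 and 7.02 FPKM in vehicle kidneys, a log2 fold change of 0.23 ± 0.10. Idi1 had 6.98, 7.48, 6.03, 9.70 and 7.06 FPKM with MaR1, against 5.22, 4.97, 5.89, 6.52 and 7.63 FPKM with vehicle, a log2 fold change of 0.28 ± 0.13 (limma adjusted p = 0.753). Kidney RB038 was the highest of the 10 for both, and for 10 of the 20 sterol genes in all, among them Sqle at 7.89 FPKM, Lss at 6.36 FPKM and Dhcr7 at 18.7 FPKM. Summed over the arm, RB038 and RB039 had 228 and 240 FPKM, and the other MaR1 kidneys 183 to 201 FPKM, against 187 to 214 FPKM in vehicle kidneys.

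The fatty acid synthesis genes were set apart by a single MaR1 kidney. Scd had 0.613, 7.27, 0.713, 1.15 and 117 FPKM in MaR1 kidneys RB035 to RB039, against 0.256, 0.676, 0.637, 0.743 and 0.546 FPKM in vehicle kidneys. Thrsp, a nuclear protein of lipogenic tissues, had 0.102, 11.0, 0.464, 0.308 and 149 FPKM with MaR1, against 0.0754, 0.135, 1.23, 0.148 and 0.153 FPKM with vehicle. Fasn had 7.42, 11.4, 7.45, 10.7 and 69.4 FPKM with MaR1, against 6.89, 8.39, 6.02, 7.17 and 8.44 FPKM with vehicle. In each of the 3 genes RB039 was far above every other kidney, and RB036 came next. The log2 fold changes were 2.12 ± 1.10 for Scd, 2.31 ± 1.34 for Thrsp and 0.86 ± 0.51 for Fasn (limma adjusted p = 0.753, 0.789 and 0.798).

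Kidney RB039 was the highest of 10 in 17 members, 9 of the fatty acid arm (Acly, Acaca, Fasn, Scd, Fads3, Elovl5, Elovl6, Thrsp and Acsl3) and 8 of the sterol arm (Hmgcs1, Acat2, Mvk, Nsdhl, Ebp, Sc5d, Insig1 and Stard4). The summed FPKM of the fatty acid arm was 727 in RB039, 284 to 369 in the other MaR1 kidneys and 324 to 348 in vehicle kidneys. Scd2 was not among them, at 17.7 FPKM in RB039 and 14.6 to 27.6 FPKM in the other kidneys. Nor was Srebf1, at 15.9 FPKM, against up to 16.5 FPKM.

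Fat cell markers moved with these genes. The 9 white fat markers summed to 553 FPKM in RB039, 74.3 FPKM in RB036 and 30.9 to 36.1 FPKM in the other MaR1 kidneys, against 14.9 to 25.4 FPKM in vehicle kidneys. Adiponectin (Adipoq) reached 120 FPKM and perilipin 1 (Plin1) 45.0 FPKM in RB039, and 13.2 and 5.80 FPKM in RB036. In the other 8 kidneys Adipoq had 2.77 to 4.78 FPKM and Plin1 0.0341 to 0.128 FPKM. Cidec, another of the 9 markers, had 4.26 to 22.1 FPKM there, so the smaller sums rest largely on it. The 3 brown fat markers summed to 143 FPKM in RB039, 9.40 FPKM in RB036 and 0.617 to 1.66 FPKM in the other 8 kidneys, with Ucp1 at 106 FPKM in RB039. In hearts the white fat markers summed to 324 to 444 FPKM, with Fabp4 at 248 to 360 FPKM. The brown fat markers summed there to 29.7 to 55.4 FPKM, with Cidea at 29.1 to 54.9 FPKM. Across organs, neither sum is therefore particular to fat cells. The 5 urothelial markers summed to 81.5 FPKM in RB039, 28.9 FPKM in RB038, 15.0 FPKM in RB036 and 0.467 to 0.549 FPKM in the other MaR1 kidneys, against 0.243 to 3.87 FPKM in vehicle kidneys. The part of these cells in the gene values was not tested. Elovl3, an elongase known from brown fat, was listed at 0 in RB039 too.

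**Figure D2:**
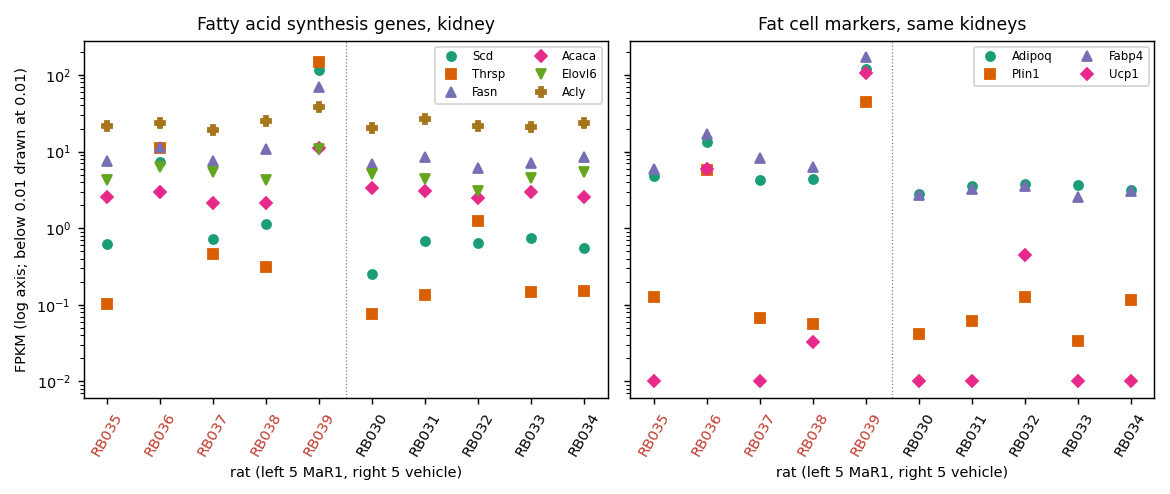
FPKM (log axis) by rat for 6 fatty acid synthesis genes and 4 fat cell markers in the same 10 kidneys, MaR1 rats on the left of each panel and vehicle rats on the right. RB039 is highest for every gene shown, and RB036 comes next for Scd, Thrsp, Fasn, Elovl6 and each marker.

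Without kidneys RB036 and RB039, a fit chosen after seeing the data, the log2 fold changes of Acaca, Acly, Insig1 and Hmgcs1 turned negative (-0.27, -0.06, -0.19 and -0.06, against 0.20, 0.13, 0.05 and 0.10 with all 10 kidneys). That fit called 283 genes, 81 higher and 202 lower, among them 2 of the 38 members tested, both desaturases and both lower, beside the 1.62% of all 12456 genes that it called lower. In that fit Fads3 was lower by 0.49 ± 0.10 on the log2 scale (limma adjusted p = 0.0464), and Fads2 by 0.51 ± 0.11 (limma adjusted p = 0.0472). The fit left out the MaR1 kidneys with the highest Fads2 values, and RB039 also had the highest Fads3 value of that group. Leaving them out lowers the MaR1 means of both genes, so these calls depend on the kidneys chosen. Over the 19 alternative fits of each gene the adjusted p ran from 0.0464 to 0.999 for Fads3 and from 0.0472 to 0.999 for Fads2. With all 10 kidneys Fads3 had 7.98, 7.71, 5.94, 6.33 and 11.0 FPKM with MaR1, against 10.6, 9.49, 9.48, 9.81 and 8.81 FPKM with vehicle, a log2 fold change of -0.32 ± 0.14 (limma adjusted p = 0.721). Fads2 had 20.8, 23.9, 16.2, 17.1 and 30.3 FPKM with MaR1, against 25.1, 30.3, 24.5, 25.3 and 24.0 FPKM with vehicle, a log2 fold change of -0.28 ± 0.15. Fads1 had 28.5, 31.1, 17.8, 20.6 and 38.1 FPKM with MaR1, against 45.7, 27.6, 31.1, 39.1 and 27.0 FPKM with vehicle. RB037 and RB038 were the lowest 2 kidneys for all 3 genes.

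Sums of cell type markers also differed among the 10 kidneys. The 4 markers of thick ascending limb and distal tubule summed to 1292, 1321, 1776, 1755 and 783 FPKM in MaR1 kidneys RB035 to RB039, against 604, 1185, 856, 767 and 1197 FPKM in vehicle kidneys, with RB037 and RB038 highest. Fads2 was 30.3 FPKM both in vehicle kidney RB031 and in MaR1 kidney RB039, where these markers summed to 1185 and 783 FPKM. The 4 podocyte markers summed to 52.2, 61.5, 42.6, 42.6 and 71.4 FPKM with MaR1, against 67.1 to 101 FPKM with vehicle. The 6 inner medulla and thin limb markers summed to 20.3 to 38.3 FPKM with MaR1, against 9.09 to 11.5 FPKM with vehicle, without overlap. In hearts these 6 genes summed to 81.1 to 122 FPKM and the 4 podocyte markers to 37.2 to 58.8 FPKM. Neither sum is therefore particular to its kidney cells. The 4 collecting duct markers summed to 204 to 327 FPKM with MaR1, against 138 to 214 FPKM with vehicle, with RB037 highest. The 6 Schwann cell markers summed to 43.2 FPKM in RB037, 33.8 FPKM in RB038 and 18.1 to 27.5 FPKM in the other MaR1 kidneys, against 16.7 to 24.5 FPKM in vehicle kidneys. Proximal tubule markers overlapped, at 3253 to 5143 FPKM with MaR1 and 3292 to 5554 FPKM with vehicle. The part of cell make-up in the marker sums and in the desaturase values was not tested.

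**Figure D3:**
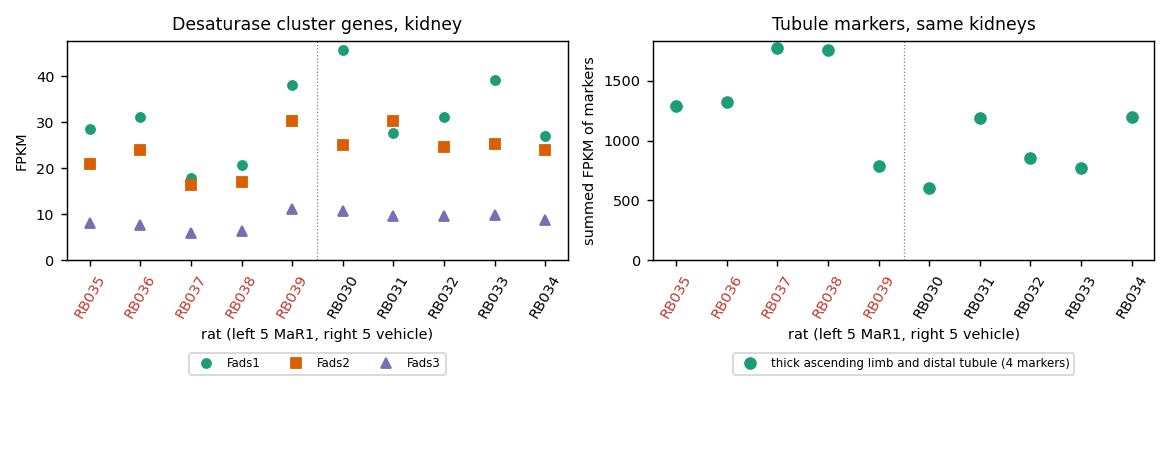
FPKM of Fads1, Fads2 and Fads3 by rat, beside the summed FPKM of 4 thick ascending limb and distal tubule markers in the same kidneys, MaR1 rats on the left of each panel and vehicle rats on the right. The 2 kidneys with the lowest desaturase values, RB037 and RB038, have the highest marker sums, 1776 and 1755 FPKM.

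In the heart, Hmgcs1 alone had groups that did not overlap. It had 7.61, 7.10, 7.47, 7.47 and 7.44 FPKM in the MaR1 hearts RB035 to RB039, against 7.99, 9.14, 8.66, 8.81 and 7.98 FPKM in the vehicle hearts RB030 to RB034. The means were 7.42 ± 0.192 and 8.52 ± 0.515 FPKM (SD, n = 5 each), a log2 fold change of -0.19 ± 0.06 (limma adjusted p = 0.998). Leaving out the 5 hearts with Myl7 above 100 FPKM gave -0.17 ± 0.10 (limma adjusted p = 0.765), and adjusted p ranged from 0.553 to 1.00 over 19 alternative fits. Of the other mevalonate enzymes, Idi1 had a log2 fold change of -0.25, and Mvk, Pmvk and Mvd had 0.17, 0.12 and 0.20, with limma adjusted p-values of at least 0.998.

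Hearts with high and low Myl7 were set side by side after their values were seen. Of the 36 members tested in heart, 4 had ranges that did not overlap between the 5 hearts with Myl7 above 100 FPKM and the other 5, as did 4.27% of all 12237 genes. They were Scd2, Srebf1 and Thrsp, higher with high Myl7, and Me1, lower; Scd, below the filter, was also apart. Me1 had 31.1 to 45.2 FPKM in the hearts with high Myl7 and 49.6 to 58.2 FPKM in the other 5. Scd2 had 15.7 to 25.5 FPKM in the hearts with high Myl7 and 10.1 to 14.5 FPKM in the others, and Srebf1 4.16 to 6.60 and 3.37 to 4.00 FPKM. Scd had 0.241 to 0.846 FPKM in the hearts with high Myl7 and 0.0104 to 0.171 FPKM in the others. Thrsp had 0.212 to 6.68 and 0 to 0.211 FPKM, ranges that nearly touched, so its place among the 4 rests on a very small gap. Fads2 reached 18.4 and 15.5 FPKM in the MaR1 hearts RB035 and RB038 and 19.4 and 13.8 FPKM in the vehicle hearts RB033 and RB034, and 8.00 to 8.76 FPKM in the other 6, RB031 with high Myl7 among them. Acsl6 was lowest in RB035 at 2.99 FPKM, RB033 at 5.22 FPKM and RB034 at 6.85 FPKM, and had 8.30 to 11.2 FPKM in the other 7. Thrsp was highest in hearts RB034 and RB035, at 6.68 and 2.36 FPKM, which also held the most Adipoq at 18.1 and 7.66 FPKM. The 9 white fat markers together summed to 390 and 359 FPKM in RB034 and RB035. Over all hearts these sums ran from 324 to 444 FPKM, with RB036 highest. Both treatments hold hearts of each kind, and the part of atrial or fat tissue in these values was not tested.

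**Figure D4:**
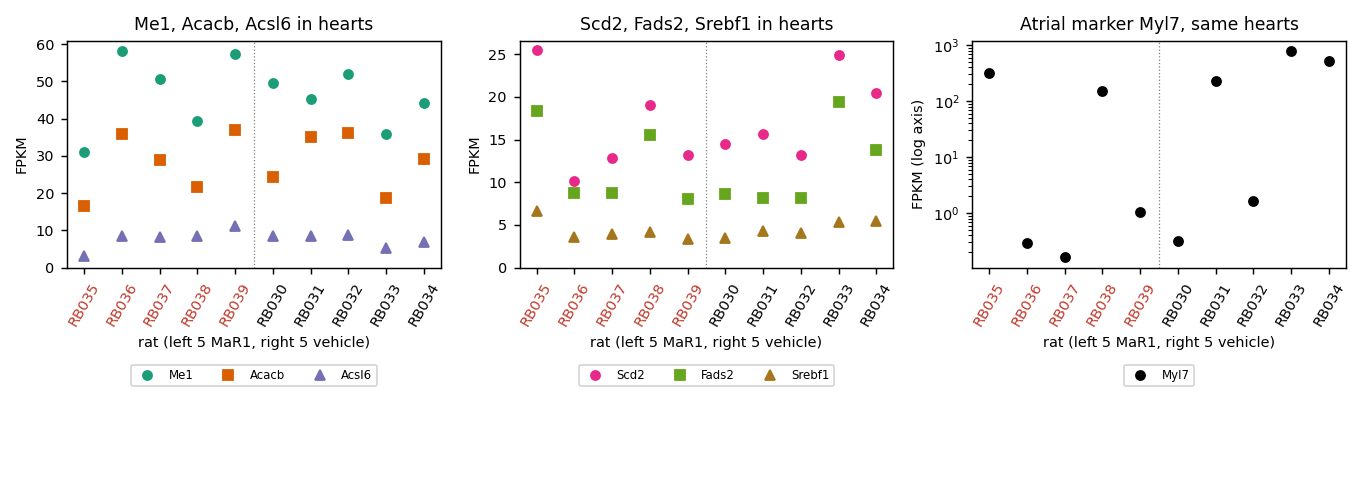
FPKM by rat for 6 fatty acid genes in 10 hearts, with the atrial marker Myl7 (log axis) in the same hearts on the right, MaR1 rats on the left of each panel and vehicle rats on the right. RB035, RB038, RB031, RB033 and RB034 have Myl7 above 100 FPKM, lower Me1 and higher Scd2 and Srebf1 than the other 5 hearts.

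Whether the organs responded differently was tested as the kidney log2 fold change minus that of the heart. Of 41 members, 0 were called (0% of 12984 genes), and 2 had an unadjusted p under 0.05, against 5.5% of all genes. Idi1 had a difference of 0.53 ± 0.20 (limma adjusted p = 0.812). In hearts it had 2.36, 1.44, 1.33, 2.16 and 2.28 FPKM with MaR1, against 2.50, 2.05, 2.14, 2.63 and 2.30 FPKM with vehicle, so the MaR1 kidneys leaned higher and the MaR1 hearts lower, with overlap in both. Mvd, the decarboxylase one step before it, had a difference of -0.32 ± 0.12 (limma adjusted p = 0.8), with 3.31 to 3.92 FPKM in MaR1 kidneys against 3.36 to 4.35 FPKM in vehicle kidneys, and 2.32 to 3.23 FPKM in MaR1 hearts against 2.19 to 2.54 FPKM in vehicle hearts. The arm medians of this difference were 0.11 for sterol genes and 0.06 for fatty acid genes, against -0.01 over all genes.

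Genes around the members were read in 4 further lists, and 0 of them were called in either organ. Other sterol synthesis genes had 8 tested in each organ, and 0 with an unadjusted p under 0.05. Of 11 genes of SREBP processing and sterol traffic in the kidney, 1 did: Scap, the escort that carries SREBPs out of the endoplasmic reticulum, had 16.3, 17.5, 16.8, 17.1 and 22.1 FPKM with MaR1, against 20.6, 21.6, 21.3, 21.5 and 22.5 FPKM with vehicle. Its log2 fold change was -0.26 ± 0.08 (limma adjusted p = 0.658), and RB039 was the 1 MaR1 kidney inside the vehicle range. Of 12 other fatty acid synthesis and activation genes in the kidney, Hsd17b12, the ketoacyl reductase of the elongation cycle, had 25.6 to 29.8 FPKM with MaR1, against 21.4 to 26.9 FPKM with vehicle (0.24 ± 0.08, limma adjusted p = 0.658). Of 8 liver X receptor and sterol export genes tested in each organ, Nr1h2, the widely expressed receptor, had 38.2 to 42.3 FPKM in MaR1 hearts, against 32.4 to 38.5 FPKM in vehicle hearts (0.16 ± 0.07, limma adjusted p = 1.00), and 0 reached an unadjusted p under 0.05 in the kidney. In hearts, 0 of 10 genes of SREBP processing and sterol traffic and 0 of 12 of fatty acid synthesis and activation did.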

How the data were processed

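Poly-A RNA was sequenced from 20 libraries, kidney and heart of 10 rats, grouped by the labels with the animal number as replicate. Per the submitters' processing notes the authors used fastp (no version given), HISAT2 2.0.5, StringTie 1.3.3b and featureCounts 1.5.0-p3. The authors deposited FPKM for 30560 genes. Gene coordinates are the file's, on a build not given in the sources used here. The labels' protocols describe stranded and unstranded preparation alike, so reads of overlapping genes may be shared. Multiplied by gene length, 100% of 371175 FPKM values above 0 came out as whole fragments within 0.01; the authors' library sizes equal a median-of-ratios scaling over 14900 genes within 1e-06%. No 2 libraries agreed within sampling noise (smallest chi-square per gene 10.1).

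Genes with a mean of at least 1 FPKM were tested on log2(FPKM + 0.5), a scale that understates changes of low genes, with limma 3.58.1 in R 4.3.3 (trend, two-sided, Benjamini-Hochberg over all genes, adjusted p under 0.05). Each organ was fitted alone for MaR1, and all 4 groups together for the organs. The test was checked on simulated data with known changes. The members and lists were chosen with earlier results of these data known. Values by library are given for members with an unadjusted p under 0.05, the extremes of each arm, members near 0, families, rate-limiting steps and regulators. Kidney and heart with 1 number come from 1 animal; their deviations from group means correlated at -0.00947 to 0.179, with 3 of 10 above 0.1, and for 2 of 10 kidneys the best match was the heart of that rat. The fit with the animal as block (statmod 1.5.0) is an alternative. The others were no filter or a mean of 5 FPKM, a pseudocount of 0.1 or 1, quantile and same-sum scaling, voom on the recovered fragments, 1 model of all libraries, leaving out each animal, and 2 fits without selected libraries that were added after seeing the data. Python 3.11.15 with matplotlib 3.10.9 drew the figures.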

Additional observations from a re-analysis of the deposited data

Results flagged for a closer look

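Of 168 sets of 5 libraries, 16 held 1 library far from its group, where chance alone marks about 5%. Kidney RB039 (MaR1) gave 6 of them, each higher than the other 4 MaR1 kidneys: Thrsp at 149 FPKM, Scd at 117 FPKM, Fasn at 69.4 FPKM, Insig1 at 33.2 FPKM, Ebp at 22.7 FPKM and Acaca at 11.1 FPKM. The others of the MaR1 group did not exceed 11.0, 7.27, 11.4, 18.4, 17.8 and 2.97 FPKM for these genes. Kidney RB038 (MaR1) was low for Elovl7, at 23.0 FPKM beside 28.1 to 29.5 FPKM. Among vehicle kidneys, RB031 was high for Fads2 at 30.3 FPKM, and RB032 was low for Mvk at 4.81 FPKM and high for Thrsp at 1.23 FPKM.

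In hearts, RB035 (MaR1) was high for Srebf1 at 6.60 FPKM and Thrsp at 2.36 FPKM and low for Fads3 at 12.6 FPKM. Vehicle heart RB034 was high for Thrsp at 6.68 FPKM, RB030 was low for Nsdhl at 2.74 FPKM, and RB032 was high for Elovl2 at 0.110 FPKM.

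Scd lay on opposite sides of the vehicle mean in the organs, and neither response was called. All 5 MaR1 kidneys lay above the vehicle kidney mean of 0.572 FPKM, 2 of them, RB039 and RB036, at 117 and 7.27 FPKM, and all 5 MaR1 hearts lay below the vehicle heart mean of 0.346 FPKM, which includes RB034 at 0.846 FPKM. The groups overlapped in both organs. Scd passed the filter in kidney (limma adjusted p = 0.753) and not in heart. The difference of the log2 fold changes, kidney minus heart, was 2.43 ± 1.20 (SE; limma adjusted p = 0.908). Scd was also higher in all 5 hearts with Myl7 above 100 FPKM, at 0.241 to 0.846 FPKM, than in the other 5, at 0.0104 to 0.171 FPKM; the part of atrial tissue in these values was not tested.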

How the results depend on the processing

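No member was called for MaR1 in any planned fit of either organ or of their difference. Over all genes, the kidney comparison called 10 genes in 1 model of all libraries and 283 without kidneys RB036 and RB039, 2 of them members, and 0 to 1 with each animal left out (1 without RB035); the difference between organs called 1 gene at a pseudocount of 0.1 and 0 to 3 with each animal left out (3 without RB035 or RB039, 1 without RB036). Leaving out RB039 turned the kidney log2 fold changes of Acaca (-0.20 to 0.33 over the animals left out), Acly (-0.0306 to 0.22), Insig1 (-0.15 to 0.18) and Hmgcs1 (-0.0613 to 0.19); without RB036 as well they were -0.27, -0.0619, -0.19 and -0.0588. The kidney median of the fatty acid arm was -0.0498 at a mean of 5 FPKM and -0.11 without both kidneys, and ran from -0.0755 to 0.0832 with each animal left out. The heart median of the sterol arm was -0.0472 with voom and -0.0571 without the hearts with high Myl7, and ran from -0.0747 to -0.00115. For the difference between organs, the fatty acid median was 0.0824 at a pseudocount of 0.1 and 0.10 with voom, and ran from -0.0796 to 0.16; the sterol median ran from 0.0297 to 0.14.

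Between organs, the sterol median of MaR1 rats was 1.20 at a pseudocount of 0.1, 0.90 at 1, 0.36 at a mean of 5 FPKM, 0.92 with quantile scaling, 1.57 with the same sum and 1.20 with voom. In vehicle rats it was 1.09 at a pseudocount of 0.1, 0.27 at a mean of 5 FPKM, 1.41 with the same sum and 1.11 with voom, and the fatty acid median was 1.74 with the same sum. The same sum turned Acsl5 to 0.26 in MaR1 rats, and Mvk, Cyp51, Insig1, Me1 and Acsl5 to 0.13, 0.39, 0.22, 0.18 and 0.15 in vehicle rats. With the animal as replicate block, the organ comparison called 10285 genes and 32 members in MaR1 rats and 10276 genes and 34 members in vehicle rats, close to the 10193 and 10211 genes without it, and the difference between organs called 0. For changes between pairs of fits that no value explains, the cause was not tested. Elovl3 gave no test, and members near 1 FPKM are limited by counting error.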
